A study of Mus musculus with 23 samples.

Results

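The miR-34 family of mouse comprises 3 hairpins and 6 mature miRNAs, namely mmu-miR-34a-5p, mmu-miR-34a-3p, mmu-miR-34b-5p, mmu-miR-34b-3p, mmu-miR-34c-5p and mmu-miR-34c-3p (written without the species prefix from here on). They were selected by name, and all 6 were among the 1218 mature miRNAs counted in the liver. Only miR-34a-5p and miR-34c-5p were among the 386 miRNAs with enough counts for a test between groups, and the other 4 members are described by their counts. Liver small RNA came from 23 male mice of the third generation (F3). The reference mice (n = 8) came from the control fatty acid lineage, whose growing diet held 1% of high-oleic sunflower oil, and received the standard diet with 10% of energy from fat. The HFoleic mice (n = 8) came from the same lineage and the HFepa mice (n = 7) from the n-3PUFA lineage, bred on 1% of fish oil rich in EPA. During 17 weeks, HFoleic and HFepa mice were both fed a diet rich in fat (45% of its energy) and sucrose. The strain was C57BL/6J, and each library is 1 mouse. There was no group of the n-3PUFA lineage on the standard diet, so lineage was compared only under the high-fat diet.

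The miR-34 genes are known as direct transcriptional targets of p53, the tumor suppressor that halts division or triggers death of damaged cells. Their mature miRNAs repress mRNAs of cell cycle and survival genes. In the liver, miR-34a is best known for repressing Sirt1, a deacetylase that acts in fatty acid oxidation and gluconeogenesis, and it has often been described as raised in fatty liver. The miR-34b/c hairpins come from another transcript and are known as abundant in multiciliated epithelia, lung and testis, together with the related miR-449 hairpins. In each hairpin 1 arm is usually kept as the guide strand and the other is degraded.

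The sequences are shown because the seed, bases 2 to 8 in capitals, decides most target recognition and sorts the members by arm. RefSeq sequences on GRCm38.p6 were matched for 5 of the 6 members. No sequence was matched for miR-34c-5p, so its seed was not compared. The 5p arms of miR-34a and miR-34b share a seed with each other and with both listed miR-449 5p arms, whereas the 3p arms of miR-34b and miR-34c share another seed and miR-34a-3p has its own.
miR-34a-5p, chr4:150068473-150068494, plus strand: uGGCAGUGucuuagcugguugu
miR-34b-5p, chr9:51103610-51103632, minus strand: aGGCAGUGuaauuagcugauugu
miR-449a-5p, chr13:113037549-113037570, plus strand: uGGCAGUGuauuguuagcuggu
miR-449c-5p, chr13:113036008-113036028, plus strand: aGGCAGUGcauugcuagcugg
miR-34a-3p, chr4:150068517-150068537, plus strand: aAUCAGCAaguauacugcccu
miR-34b-3p, chr9:51103574-51103595, minus strand: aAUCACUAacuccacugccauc
miR-34c-3p, chr9:51103044-51103065, minus strand: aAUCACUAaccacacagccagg

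The seed of miR-34a-5p was held by 4 of the 1045 listed miRNAs that had a sequence, which are the 4 5p arms printed. miR-34c-5p was not among those 1045, so this count says nothing about its seed. Compared base by base from the 5′ end without gaps, miR-34a-5p differed from miR-34b-5p at 11 of 22 positions, and miR-34b-3p from miR-34c-3p at 5 of 22. The Mir34a hairpin lies on chromosome 4 (150068454 to 150068555, plus strand), where its end overlaps an exon of Gm37795, a GENCODE model of the class that awaits experimental proof. The Mir34c hairpin (51103034 to 51103110) and the Mir34b hairpin (51103562 to 51103645) lie on the minus strand of chromosome 9 with 451 bases between them, within an intron of Btg4, a protein-coding gene of the opposite strand.

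Library totals ranged from 3725432 to 8139344 counts, and the medians were 5981328 (reference), 5408676 (HFoleic) and 4400595 (HFepa). Levels are given as CPM, each count scaled to a common library size, on TMM-scaled library sizes. Library numbers 1 to 11 held all reference and 3 HFoleic mice, and numbers 12 to 23 held 5 HFoleic and all HFepa mice. The labels name no batch, but whatever differed between these number blocks cannot be told apart from the group in HFepa vs. reference. The summed hepatocyte markers miR-122 (both arms), miR-192-5p and miR-148a-3p lay between 255990 and 348509 CPM in 22 livers, as a liver label requires, and reached 183952 CPM in reference library 3. That library stood apart from its group more than any other, with 77 of the 386 tested miRNAs over 2-fold from the median of the other reference libraries. Reference library 5 followed with 33 and HFepa library 19 with 29, and the other 20 libraries had between 6 and 24. Both reference libraries also held high levels of miR-34 members. The fold changes of miR-34a-5p and miR-34c-5p are given with and without these libraries.

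The family was dominated by a single arm in nearly all livers. The order of the mean levels over 23 livers was miR-34a-5p (36.1 CPM), miR-34c-5p (12.1 CPM), miR-34b-5p (0.858 CPM), miR-34b-3p (0.225 CPM), miR-34c-3p (0.124 CPM) and miR-34a-3p (0.0832 CPM). Mature miRNAs have nearly equal lengths, so these levels can be compared between members, although adapter ligation favours some ends over others. miR-34a-5p exceeded miR-34c-5p in 22 of 23 livers, reference library 5 being the exception, and miR-34c-5p exceeded miR-34b-5p in 23 of 23. miR-34b-5p was above miR-34b-3p in 18 livers, equal in 4 and below in 1. The 3 members at the foot of this order could not be ranked. miR-34b-3p was above miR-34c-3p in 11 livers and below it in 7, and miR-34c-3p was above miR-34a-3p in 10 and below it in 4.

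miR-34a-5p made up between 22.2% and 77.2% of the family's counts in the reference livers, with a median of 67.2%. The share lay between 74.6% and 90.6% in HFoleic livers (median 78.6%) and between 68.9% and 84.0% in HFepa livers. The lowest share came from reference library 5, in which miR-34c-5p was the main member. Over the 386 tested miRNAs, miR-34a-5p ranked 190 and miR-34c-5p 248 by mean level, so that both were of middle to low abundance in this tissue.

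The 5p arm was kept in all 3 hairpins. Over all livers miR-34a gave 4505 counts of its 5p arm and 11 of its 3p arm, a 3p share of 0.244% (exact 95% interval 0.122 to 0.435%). The miR-34c hairpin gave 1565 and 17 counts, a 3p share of 1.07% (0.627 to 1.71%). miR-34b was the least one-sided hairpin, with 111 and 29 counts and a 3p share of 20.7% (14.3 to 28.4%). These intervals cover counting error only, since PCR reads without molecular identifiers are not independent molecules. Livers also differed from each other, and reference libraries 5 and 3 alone gave 26 and 16 of the 111 counts of miR-34b-5p.

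miR-34a-5p, the p53-responsive guide strand, did not pass the test in any comparison of the 3 groups. In the reference group its level was 13.0 CPM at the lowest, 21.2 at the median and 124 at the highest (33.3 ± 37.0, SD, n = 8). In HFoleic it was 25.4, 36.6 and 78.5 CPM (41.4 ± 17.6, n = 8), and in HFepa 20.5, 24.8 and 73.5 CPM (33.3 ± 18.5, n = 7). The highest livers were reference library 3 with 859 counts, HFoleic library 14 with 387 and HFepa library 19 with 309, the next livers of these groups were at 24.8, 52.1 and 36.0 CPM, and all groups overlapped. The log2 fold change was 0.31 (SE 0.40, adjusted p = 0.653 in edgeR's quasi-likelihood test) in HFoleic vs. reference, where 12.4% of the tested miRNAs (4.92% higher, 7.51% lower) were called (adjusted p below 0.05 with a log2 fold change beyond 0.25 either way). It was -0.01 (SE 0.42, adjusted p = 0.997) in HFepa vs. reference, with 15.8% called (5.18% higher, 10.6% lower). Between HFepa and HFoleic it was -0.31 (SE 0.42, adjusted p = 0.968), with 0% called by edgeR and 22 miRNAs at an unadjusted p under 0.05. The first comparisons share the reference libraries, so a single reference liver enters both.

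**Figure D1:**
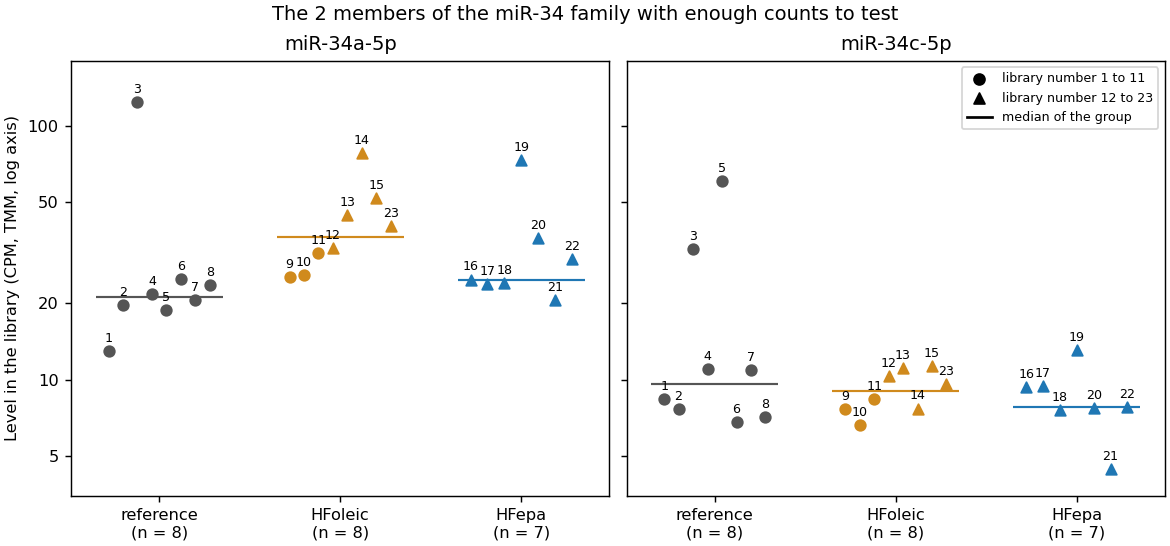
Level of miR-34a-5p and miR-34c-5p in each liver (CPM on TMM-scaled library sizes, log axis) by group, with the library number above each point and the median of the group as a line. Circles are libraries 1 to 11 and triangles 12 to 23. Reference library 3 (124 CPM) stands far above the other reference livers for miR-34a-5p, and reference libraries 5 (60.4 CPM) and 3 (32.7 CPM) do so for miR-34c-5p.

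The result for miR-34a-5p rested on reference library 3. Without it, the other 7 reference livers lay between 13.0 and 24.8 CPM (20.3 ± 3.88), below the lowest HFoleic liver at 25.4 CPM. For HFoleic vs. reference the fold change then became 1.02 on the log2 scale (SE 0.27, edgeR adjusted p = 0.0240) and passed the test, where 11.4% of 385 miRNAs were called. For HFepa vs. reference the value was 0.71 (SE 0.28, edgeR adjusted p = 0.0841) and remained below the threshold, and 20.5 CPM in the lowest HFepa liver overlapped the reference range. Groups of HFoleic and reference that did not overlap without library 3 were found for 0.259% of the 386 miRNAs. For HFepa and reference, which do overlap in miR-34a-5p, that share was 6.22% (4.66% with all libraries). Library 3 drew attention through its own miR-34a-5p count, so its removal lowers the reference mean by construction. Leaving out any other library kept this log2 fold change between 0.10 and 0.44, with no call. With libraries 3 and 5 both left out it was 0.99 (edgeR adjusted p = 0.0551), just short of a call.

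Within HFoleic, the levels of miR-34a-5p also differed by library number. HFoleic libraries 9, 10 and 11 had 25.4, 25.9 and 31.5 CPM, whereas HFoleic libraries 12, 13, 14, 15 and 23 had 33.1, 44.6, 78.5, 52.1 and 40.2 CPM. Every HFoleic liver of the later block was therefore above every HFoleic liver of the earlier block. How many of the other tested miRNAs separated these livers was not counted. The HFepa livers of the later block other than library 19 lay between 20.5 and 36.0 CPM. With a term for the block, the log2 fold change was -0.27 (SE 0.54) in HFoleic vs. reference and -0.85 (SE 0.72) in HFepa vs. reference. Among libraries 1 to 11 alone it was -0.25 (SE 0.63), and 0.45 (SE 0.18, edgeR adjusted p = 0.460) once reference library 3 was also left out. Among libraries 12 to 23 alone, HFepa was below HFoleic by a log2 fold change of -0.56 (SE 0.31, edgeR adjusted p = 0.860), against -0.31 over all libraries.

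**Figure D2:**
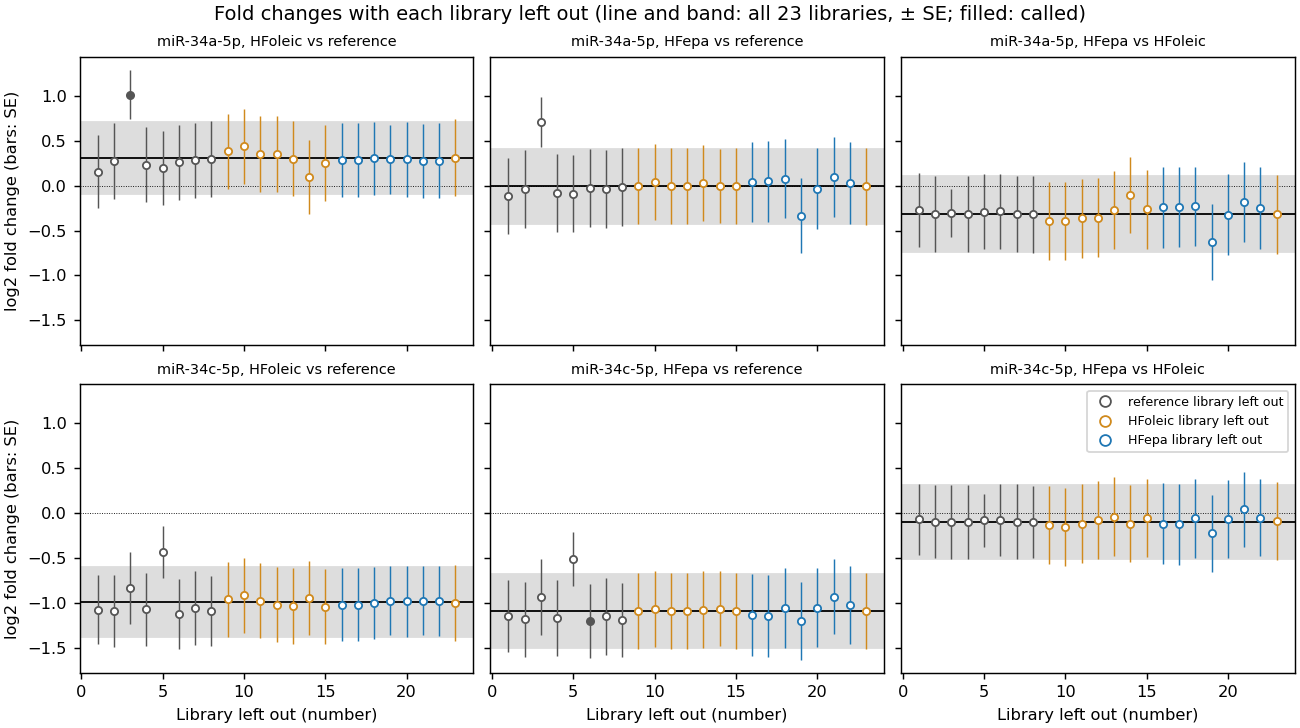
Log2 fold change of miR-34a-5p and miR-34c-5p in each comparison (vertical axis, bars give the SE) after 1 library was left out (horizontal axis, library number), with the value of all 23 libraries as a line and its SE as a band. Filled points were called. For miR-34a-5p the point of reference library 3 lies at 1.02 in HFoleic vs. reference, and for miR-34c-5p the point of reference library 5 lies at -0.43.

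miR-34c-5p, the main product of the miR-34b/c cluster, had similar medians in the 3 groups and a long upper tail in the reference group. The reference livers lay at 6.81 CPM at the lowest, 9.65 at the median and 60.4 at the highest (18.1 ± 19.1, n = 8). HFoleic livers lay at 6.66, 9.02 and 11.4 CPM (9.12 ± 1.75, n = 8), and HFepa livers at 4.45, 7.79 and 13.1 CPM (SD 2.62, n = 7). Reference library 5 with 360 counts and reference library 3 with 226 were above every other liver, and the other 6 reference livers lay from 6.81 CPM upward, all within the range of the high-fat livers. The log2 fold change was -0.99 (SE 0.39, edgeR adjusted p = 0.109) in HFoleic vs. reference and -1.09 (SE 0.41, edgeR adjusted p = 0.0690) in HFepa vs. reference. In HFepa vs. HFoleic it was -0.10 (SE 0.41, edgeR adjusted p = 0.968).

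Those differences from the reference group were carried by 2 livers. Without reference library 5 the log2 fold changes of miR-34c-5p were -0.43 (SE 0.29) and -0.51 (SE 0.30), and without libraries 3 and 5 they were 0.05 and -0.03. Without reference library 6, whose miR-34c-5p level was the lowest of its group, HFepa vs. reference was called (-1.20, edgeR adjusted p = 0.0454), where 17.2% of 383 miRNAs were called. DESeq2 replaced the miR-34c-5p count of library 5 as an outlier and gave -0.36 and -0.44.

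Reference library 5, the liver with the most miR-34b/c, had 2020 CPM of miR-375-3p, a miRNA of pancreatic islets and other endocrine cells. The other 22 livers had between 9.00 and 57.3 CPM of it. The other 3 pancreas markers on the list, miR-216a-5p, miR-216b-5p and miR-217-5p, reached at most 5 counts in any liver. Both markers of multiciliated epithelium were near 0, with miR-449a-5p at no more than 4 counts in any liver and miR-449c-5p at 2 counts in HFoleic library 10 and 0 elsewhere. The part of such cells in the level of miR-34c-5p was not tested.

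miR-34b-5p, from the hairpin beside miR-34c, was counted in every liver but at low numbers. Counts lay at 1, 6 and 26 (lowest, median and highest) in the reference group, 1, 2.5 and 4 in HFoleic and 1, 4 and 4 in HFepa. The highest counts were those of reference libraries 5 (26), 3 (16) and 7 (10), and the other 20 livers had no more than 7. The mean level was 1.34 ± 1.42 CPM in reference, 0.501 ± 0.254 in HFoleic and 0.709 ± 0.346 in HFepa. No comparison passed an exact two-sided permutation test of the mean CPM after adjustment over the 12 tests of the 4 low members (HFoleic vs. reference: p = 0.111, adjusted p = 0.558).

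**Figure D3:**
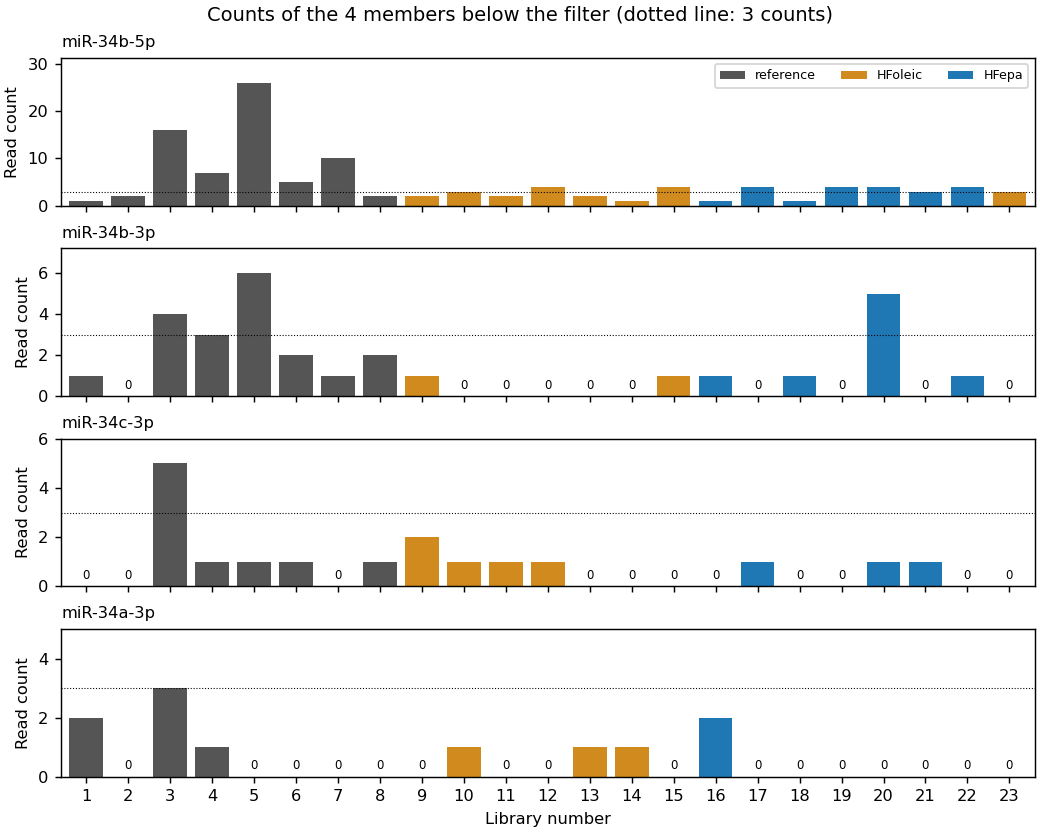
Read counts of miR-34b-5p, miR-34b-3p, miR-34c-3p and miR-34a-3p in each of 23 libraries (horizontal axis, library number), coloured by group, with 0 written where no read was counted. The dotted line marks 3 counts. miR-34b-5p reached 26 and 16 counts in reference libraries 5 and 3, and miR-34b-3p was at 0 in 6 of 8 HFoleic libraries.

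miR-34b-3p was more often counted in reference than in HFoleic livers. It had 19 counts over 8 reference livers, of which 1 had none, and 2 counts over 8 HFoleic livers, of which 6 had none. HFepa livers had 8 counts, 5 of them in library 20. The difference of the mean in HFoleic vs. reference was -0.31 CPM (exact permutation p = 0.00653, adjusted p = 0.0783 over 12 tests), from 0.364 ± 0.310 to 0.0515 ± 0.0967 CPM, and it did not pass the threshold. A count of 0 allowed a level of up to 0.369 to 0.805 CPM of the library total without TMM scaling, depending on the library. Most of the miR-34b-3p values are therefore below what 1 library can resolve. In HFepa vs. reference the exact permutation p was 0.578.

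The other 3p arms were hardly present. miR-34c-3p gave 17 counts in all, was at 0 in 11 livers and reached 5 counts in reference library 3. miR-34a-3p gave 11 counts in all, was at 0 in 16 livers and reached 3 counts, again in reference library 3. Their lowest exact permutation p between groups was 0.537, and a difference was not detectable at this depth. The ratio of miR-34a-5p to miR-34a-3p, on the log2 scale with 0.5 added to each count, averaged 7.48 ± 1.18 in reference, 8.11 ± 0.67 in HFoleic and 7.68 ± 1.15 in HFepa. It did not pass the exact permutation test in HFoleic vs. reference (p = 0.216, adjusted p = 0.608 over 3 comparisons), nor in HFepa vs. reference (p = 0.742) or HFepa vs. HFoleic (p = 0.406). Every liver had 0 to 3 counts of the 3p arm, so that a change in arm use was not detectable at this depth.

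Across livers, the members did not form a single group. Each log2 level (0.5 counts added for the members, a prior count of 2 in the search over all miRNAs) was taken as its deviation from the mean of its group and number block, and 3 pairs of members were compared with 100000 shuffles within these sets. miR-34b-5p and miR-34c-5p, which lie on the same cluster, varied together (r = 0.716, permutation p = 0.00283, adjusted p = 0.00849, n = 23; Spearman's rho = 0.551, permutation p = 0.0155). With the 2 livers farthest from the median in miR-34b-5p left out (reference libraries 5 and 1), r was 0.558 (permutation p = 0.0292). Without libraries 3 and 5, r fell to 0.335 (permutation p = 0.194) and rho was 0.461 (permutation p = 0.0648). It was 0.858 (permutation p = 0.00247) in libraries 1 to 11 and 0.249 (permutation p = 0.483) in 12 to 23, so the relation was seen in the block that held these livers. Many of these livers had fewer than 5 counts of miR-34b-5p.

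miR-34a-5p did not pass the test with either member of the cluster. With miR-34c-5p r was 0.406 (permutation p = 0.179) and rho 0.203 (permutation p = 0.377), and with miR-34b-5p r was 0.315 (permutation p = 0.291) and rho 0.202 (permutation p = 0.392). Without reference library 3 and HFepa library 19, the livers farthest from the median in miR-34a-5p, r was -0.0849 and 0.0137. The value with miR-34c-5p turned on single livers, being 0.116 without reference library 3 (permutation p = 0.546), 0.740 without reference library 5 (permutation p = 0.0170, not adjusted) and 0.331 without both, which did not pass. In reference library 5 the members parted, since miR-34c-5p was above the highest level of any other liver while miR-34a-5p was at 18.8 CPM, below the median of its group. Reference library 3 was high in both.

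The same deviations were used to find which of the other 385 tested miRNAs varied with miR-34a-5p. At an adjusted p under 0.05, 36 did (9.35%), 20 in the same and 16 in the opposite direction, and 116 had an unadjusted p under 0.05. The median r over all 385 was 0.0474. When limited to a mean level of 10 CPM or more, the highest r were those of miR-195a-5p (0.881), miR-582-3p (0.881), miR-132-3p (0.859), miR-199a-5p (0.841) and miR-497a-5p (0.840), with adjusted permutation p from 0.0261 to 0.0522. miR-132-3p, from a locus that responds to CREB, was the one above the threshold. The lowest were those of miR-30c-2-3p (-0.896, adjusted permutation p = 0.0115), miR-30e-3p (-0.892, adjusted permutation p = 0.0077), miR-1948-3p (-0.829, adjusted permutation p = 0.0364), miR-194-2-3p (-0.791, adjusted permutation p = 0.0361) and miR-203-3p (-0.770, adjusted permutation p = 0.128).

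The sequences of some of the named partners are shown for their seeds. miR-582-3p, as high in r as miR-195a-5p (0.881), has another seed than miR-195a-5p and is not printed. miR-195a-5p and miR-497a-5p are neighbours on chromosome 11 and carry the seed of the miR-15/16 family, which was held by 6 listed miRNAs, whereas miR-30c-2-3p and miR-30e-3p are 3p arms from different chromosomes with different seeds. None of these seeds is that of a miR-34 member with a matched sequence.
miR-195a-5p, chr11:70235062-70235082, plus strand: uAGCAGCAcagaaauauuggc
miR-497a-5p, chr11:70234730-70234751, plus strand: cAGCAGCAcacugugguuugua
miR-30c-2-3p, chr1:23291754-23291775, plus strand: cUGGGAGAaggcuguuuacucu
miR-30e-3p, chr4:120772618-120772639, minus strand: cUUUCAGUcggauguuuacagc

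**Figure D4:**
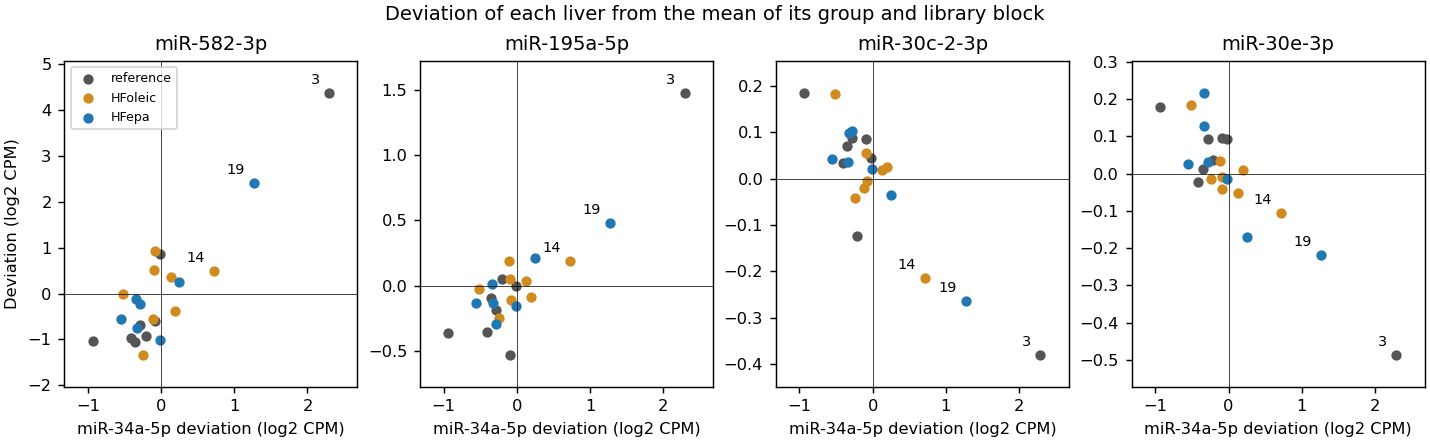
Deviation of each liver from the mean of its group and number block in log2 CPM, for miR-34a-5p (horizontal axes) and for miR-582-3p, miR-195a-5p, miR-30c-2-3p and miR-30e-3p (vertical axes, with different scales), coloured by group. Libraries 3, 14 and 19 are numbered. Libraries 3 and 19 lie farthest along every panel, and the remaining livers of the miR-582-3p and miR-195a-5p panels form a cloud (r = 0.408 and 0.431 without them).

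These relations rested on the 2 livers farthest from the median, reference library 3 and HFepa library 19. Without both, 0 of the 385 miRNAs had an adjusted p under 0.05 (38 had an unadjusted p under 0.05), although all 36 kept their sign and 8 of them had an unadjusted p under 0.05. The median absolute r of the 36 fell from 0.747 to 0.385. By Spearman's rho over all 23 livers, 0 miRNAs passed (59 at an unadjusted p under 0.05). Leaving out library 3 alone left 0 miRNAs, and library 19 alone 3.

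Named partners differed in how much remained. Without libraries 3 and 19, r was -0.709 for miR-30c-2-3p (permutation p = 0.00623, adjusted p = 0.260) and -0.637 for miR-30e-3p (permutation p = 0.00671, adjusted p = 0.260), and their rho over all livers was -0.708 (permutation p = 0.00098, adjusted p = 0.103) and -0.694 (permutation p = 0.00127, adjusted p = 0.103). For miR-195a-5p, miR-582-3p, miR-497a-5p and miR-199a-5p r was 0.431, 0.408, 0.398 and 0.320 with permutation p between 0.0654 and 0.164, and rho over all livers lay between 0.503 and 0.610. miR-1948-3p and miR-194-2-3p were at -0.310 and -0.375. For miR-132-3p r fell to 0.126, and for miR-203-3p, an epithelial miRNA, it turned to 0.189. Within the number blocks the r of miR-30c-2-3p was -0.901 in libraries 1 to 11 and -0.909 in 12 to 23, and that of miR-582-3p was 0.923 and 0.788. The first block includes library 3 and the second library 19, and 0 of the 385 miRNAs passed within either block.

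The sizes of these variations were unequal. miR-582-3p was at 193 CPM in library 3 and 44.0 CPM in library 19, against 3.78 to 25.2 CPM in the other 21 livers. miR-195a-5p was at 350 and 141 CPM, against 82.3 to 130 CPM. Both miR-30 arms spanned narrow ranges, with miR-30c-2-3p at 195 and 201 CPM against 193 to 290 CPM, and miR-30e-3p at 302 and 354 CPM against 354 to 481 CPM. The other 3 named partners of negative r were lower in both libraries than in any of the other 21 livers. miR-1948-3p was at 91.1 and 132 CPM against 171 to 433 CPM, miR-194-2-3p at 27.0 and 39.5 CPM against 42.7 to 65.2 CPM, and miR-203-3p at 647 and 1338 CPM against 1358 to 1796 CPM. Between groups, miR-1948-3p was the one of these 10 partners that was called (HFepa vs. reference, log2 fold change 0.74, SE 0.23, edgeR adjusted p = 0.0340). With the block term it was at -0.08 (SE 0.35, edgeR adjusted p = 0.992) and not called, nor was any of the 386 miRNAs in that comparison by edgeR (16 at an unadjusted p under 0.05).

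**Figure D5:**
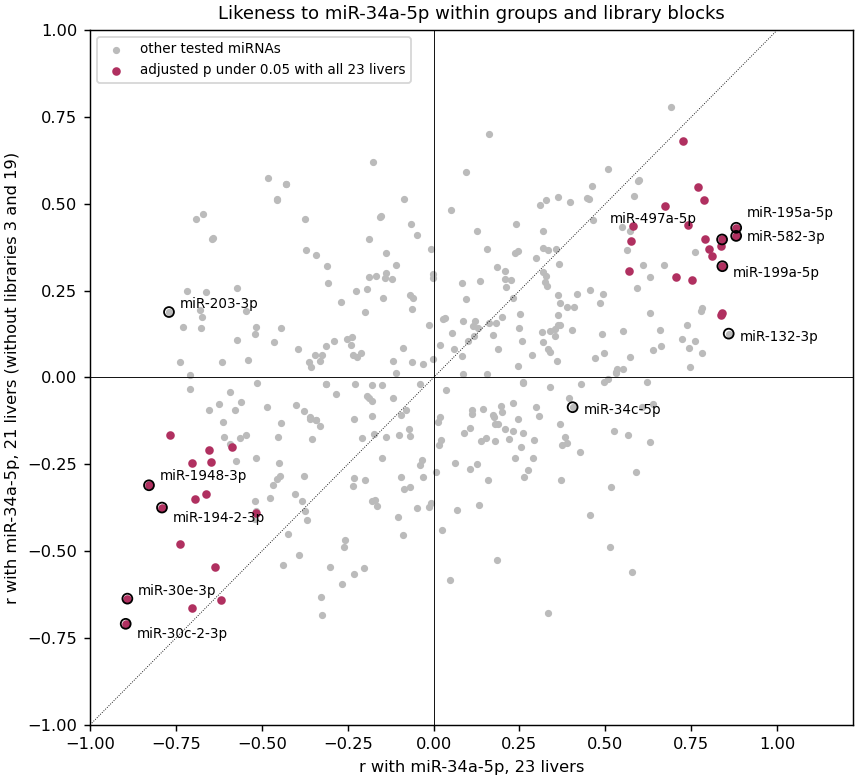
Pearson's r with miR-34a-5p for each of the other 385 tested miRNAs over 23 livers (horizontal axis) and over the 21 livers without reference library 3 and HFepa library 19 (vertical axis), both from deviations within group and number block. Red points had an adjusted p under 0.05 with all livers, circles mark named miRNAs, and the dotted line is equality. Most red points move toward 0 on the vertical axis, and miR-30c-2-3p (-0.709) and miR-30e-3p (-0.637) stay low.

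Markers of stellate cells, biliary epithelium and leukocytes tended to rise with miR-34a-5p. Their sums stood above the group in reference library 3 but not in HFepa library 19. All 6 stellate cell and fibroblast markers had a positive r (median 0.809), as did all 5 markers of biliary epithelium (median 0.762) and all 6 leukocyte markers (median 0.496), whereas all 4 hepatocyte markers had a negative r (median -0.614). An adjusted p under 0.05 was reached by 3 stellate, 1 biliary, 1 leukocyte and 1 hepatocyte marker, beside 9.35% of the 385 miRNAs, of which 203 had a positive r. The stellate list holds miR-199a-5p, already named above. Its miR-199a-3p and miR-199b-3p, both among the 3 that passed, had nearly equal r (0.838 and 0.839). Their log2 fold changes in HFoleic vs. reference were both -0.437, so they may not be separate measurements. Of these markers, miR-122-5p, miR-155-5p and miR-223-3p also stand on the fatty-liver list, and miR-192-5p, miR-143-3p, miR-145a-5p, miR-141-3p and miR-200c-3p on the p53-linked list. The medians without libraries 3 and 19 were 0.188, 0.0917, -0.170 and 0.428. The median r of the 2 endothelium markers was -0.473 (0.271 without these livers) and that of the 3 red blood cell markers -0.189. The tested pancreas and muscle markers, 1 of each, had r of -0.179 and -0.0294. In reference library 3 the summed biliary markers were at 1094 CPM against 151 to 285 in the other reference livers, the stellate markers at 43370 against 23693 to 33505, and the leukocyte markers at 3557 against 1760 to 2800 CPM. Its hepatocyte markers, at 183952 CPM, were below the 285696 to 329991 CPM of the other reference livers. HFepa library 19 had 257 CPM of biliary, 26817 CPM of stellate and 2419 CPM of leukocyte markers, all within the range of the other HFepa livers. Its hepatocyte markers, at 255990 CPM, were below the 295640 to 331904 CPM of those livers. Its stellate sum was mostly miR-143-3p, at 25449 CPM (HFepa mean 25414). There miR-199a-5p was at 208 CPM, above the 143 to 194 CPM of the other HFepa livers. miR-199a-3p, miR-199b-3p and miR-214-3p were at 628, 310 and 28.6 CPM (HFepa means 488, 241 and 23.8), and miR-145a-5p at 194 CPM (mean 192). In bulk liver, fewer cells of a type and less RNA per cell cannot be told apart, and the part of cell make-up in the level of miR-34a-5p was not tested.

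The related miR-449 hairpins, whose 5p arms carry the miR-34a-5p seed, were next to absent. Of 5 mature miR-449 names on the list 2 were in the counts, miR-449a-5p with 41 counts in all and miR-449c-5p with 2, and neither could be tested. The highest level of miR-449a-5p was 0.947 CPM.

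Of 10 other miRNAs linked with p53, all tested, 2 were called in HFoleic vs. reference (12.4% over all tested miRNAs), miR-107-3p as higher (log2 fold change 0.39, edgeR adjusted p = 0.0357) and miR-215-5p as lower (-3.11, edgeR adjusted p = 0.0249). In HFepa vs. reference (15.8% over all) 1 passed, miR-215-5p (-3.15, edgeR adjusted p = 0.0249). None of these calls was kept with the block term, where the SEs were larger. For miR-107-3p the log2 fold change was then 0.33 (SE 0.16, edgeR adjusted p = 0.437). For miR-215-5p it was -3.32 (SE 1.36, edgeR adjusted p = 0.415) and -3.48 (SE 1.60, edgeR adjusted p = 0.723). miR-215-5p reached 1885 CPM in 1 reference liver, and its mean there follows that liver. miR-107-3p was at 550 CPM in reference library 3, against 937 to 1216 CPM in the other reference livers. Its call without that library is not given. The median log2 fold change of the list was 0.11 and 0.05 in these comparisons, beside -0.00 and -0.06 over all 386 miRNAs. With miR-34a-5p, 5 of the 10 had a positive r and 0 had an adjusted permutation p under 0.05 (median r -0.106); miR-192-5p and miR-194-5p, abundant in hepatocytes and known p53 targets, had r of -0.693 and -0.709, which became 0.455 and -0.0319 without libraries 3 and 19.

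Of 10 miRNAs often measured in fatty liver, all tested, 1 was called in HFoleic vs. reference (12.4% over all), miR-33-5p. This miRNA lies in an intron of Srebf2 and represses cholesterol export. Its log2 fold change was 0.58 (SE 0.17, edgeR adjusted p = 0.0278), and 0.54 (SE 0.22, edgeR adjusted p = 0.415) with the block term. miR-33-5p was at 3.53 CPM in reference library 5, against 6.80 to 10.6 CPM in the other reference livers. Its call without that library is not given. In HFepa vs. reference miR-33-5p had a log2 fold change of 0.45 (edgeR adjusted p = 0.0758) and no member of the list was called (15.8% over all). The median log2 fold change was -0.05 and -0.06, beside -0.00 and -0.06 over all 386 miRNAs. With miR-34a-5p, miR-223-3p, a miRNA of myeloid cells, had a positive r of 0.802 (adjusted permutation p = 0.0361) and miR-29a-3p a negative one of -0.649 (adjusted permutation p = 0.0466), which became 0.369 and -0.244 without libraries 3 and 19. miR-122-5p, the main hepatocyte miRNA, and miR-21a-5p had r of -0.643 and 0.0866.

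Both tested members varied more between mice than most miRNAs. The SD of log2 CPM within groups was 0.74 for miR-34a-5p and 0.73 for miR-34c-5p, beside a median of 0.33 over 386 miRNAs, and 39 and 40 miRNAs had a larger one. Without reference library 3 it was 0.51 for miR-34a-5p (72 larger), and without reference library 5 it was 0.53 for miR-34c-5p (75 larger). Their counts per library ran from 68 to 859 and from 21 to 360.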

How the data were processed

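Reads of liver small RNA (TruSeq kit, gel-selected) were trimmed by the authors, who ran ncPRO-seq (Bowtie alignment) to count each mature miRNA and deposited unnormalized counts. Bases were called with bcl2fastq 2.17.1.14 per the labels. The build is named as mm10 in the labels and as both GRCm38.p6 and mm9 in the methods, and the deposited table holds no coordinates. A further deposited signal, each count over its library's size factor, was read only to check the columns. Their group means, log2 fold changes, p-values and adjusted p-values were not used. The counts between arms of near-identical sequence depend on how mismatched and multiply aligned reads were treated.

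Groups were taken from the sample labels. Counts were scaled by TMM, filtered by filterByExpr and tested by edgeR 4.0.16 (R 4.3.3) in a single quasi-likelihood fit of the 3 groups, with Benjamini-Hochberg adjustment over 386 miRNAs. The p-values measure the spread between mice. edgeR was used in place of DEGseq, which the methods name. Log2 CPM used a prior count of 2, members below the filter an exact permutation test, and correlations 100000 shuffles within group and number block. DESeq2 1.42.0 and limma 3.58.1 gave alternatives, and figures were drawn with matplotlib 3.10.9. Scripts were tested on simulated data. No 2 libraries of a group agreed within counting noise (lowest chi-square per degree of freedom 32.0 over 77 pairs). Members and lists were chosen with earlier results of these data known. Named miRNAs were the 6 members, the lists, and the 5 highest and 5 lowest r among miRNAs with at least 10 CPM. miR-375-3p is a listed pancreas marker, whereas miR-10b-5p, miR-127-3p and miR-434-3p were named after their values were seen.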

Additional observations from a re-analysis of the deposited data

Results flagged for a closer look

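Within each group, the highest and lowest liver of every member and of the miR-34a arm ratio were compared with Dixon's 95% critical value for the gap to the nearest liver divided by the range. Over 21 such sets 6 livers exceeded it. Chance flags about 5% of sets of normally spread values, a rate that does not hold for the 3p arms and their ratio, with 0 to 5 counts a liver. miR-34a-5p was at 124 CPM in reference library 3, with the next reference liver at 24.8 CPM, and at 73.5 CPM in HFepa library 19, with the next at 36.0 CPM. miR-34c-3p was at 0.725 CPM in reference library 3 (5 counts). miR-34b-3p was at 1.13 CPM in HFepa library 20 (5 counts). miR-34a-3p was at 0.447 CPM in HFepa library 16, which rests on 2 counts against 0 in the other 6. The arm ratio was lowest, at 4.78 on the log2 scale, in reference library 1, which had 68 counts of the 5p and 2 of the 3p arm. The level of miR-34c-5p in reference library 5 (60.4 CPM) did not exceed the critical value, since library 3 was also high.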

How the results depend on the processing

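The 48 called in HFoleic vs. reference became 28 with DESeq2, 29 with no filter, 7 with only these 2 groups, 10 with quantile normalization and limma, 10 without libraries 3 and 5, 1 with a term for the number block (0 without library 3), and 0 in libraries 1 to 11 alone, with or without library 3. The 61 in HFepa vs. reference became 40 with only these groups, 24 with limma, 35 without libraries 3 and 5, and 0 with the block term, with or without library 3. The 0 in HFepa vs. HFoleic became 1 without libraries 3 and 19. Leaving out 1 library gave 12 to 53, 32 to 66 and 0 to 1. HFoleic vs. reference fell to 24, 21, 20 and 12 without libraries 13, 14, 15 and 5, HFepa vs. reference to 38, 38, 32 and 36 without 16, 18, 22 and 5, and HFepa vs. HFoleic gave 1 without 19.

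For miR-34a-5p in HFoleic vs. reference, the log2 fold change was 0.70 with limma, 0.11 with library totals, -0.27 with the block term, -0.25 in libraries 1 to 11 and 1.02 without libraries 3 and 19 (0.097 to 1.02 leaving out 1, the highest without library 3). In HFepa vs. reference it was 0.036 with DESeq2, 0.43 with limma, 0.014 with only these groups, 0.70 without 3 and 5 and 0.38 without 3 and 19 (-0.33 without library 19 to 0.71 without library 3). In HFepa vs. HFoleic it ranged from -0.63 to -0.10. For miR-34c-5p the first comparison gave 0.054 without 3 and 5, and leaving out 1 library gave -1.12 to -0.43, -1.20 to -0.51 and -0.23 to 0.044. It was called once, in HFepa vs. reference without library 6.

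Differences of the low members are in CPM. For miR-34a-3p in HFepa vs. HFoleic the value of -0.00235 became 0.0042 in thinned libraries and ranged from -0.0663 to 0.0171 leaving out 1 library. For miR-34c-3p the ranges were -0.0951 to 0.0199, -0.0915 to 0.0156 and -0.0314 to 0.0308. The miR-34b-3p difference in HFoleic vs. reference ranged from -0.364 to -0.220, and the log2 arm ratio in HFepa vs. reference from -0.188 to 0.565. That miR-34b-3p difference passed the threshold in 1 of 18 alternative settings. The 36 miRNAs that varied with miR-34a-5p became 56 with plain log2 CPM, 59 with library totals, 16 in thinned libraries, and 0 by Spearman's rho, within either number block or without libraries 3 and 19. Leaving out 1 library gave 0 to 42, with 0 without library 3, 3 without 19, 12 without 1 and 21 without 20. Without libraries 3 and 19, r turned to 0.189 for miR-203-3p and -0.0855 for miR-34c-5p (prior count 2), which leaving out 1 library set from 0.114 without library 3 to 0.743 without library 5. The causes were not tested, except that single blocks and pairs of groups hold fewer mice. Settings that left out 2 libraries, or library 3 with the block, were chosen after seeing the data. No paired analysis was possible because each mouse gave 1 library, replicate numbers only follow the accession order and nothing in the labels links mice of different groups. Depth limits the 4 members below the filter, for which 3 counts equal 0.369 to 0.805 CPM of the library total without TMM scaling.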
